A study of Mus musculus with 4 samples.

Results

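The genes described here are the granulocyte colony-stimulating factor G-CSF, encoded by Csf3, its receptor Csf3r, the chemokines Cxcl1, Cxcl2, Cxcl3 and Cxcl5, and their receptor Cxcr2. They were chosen by symbol, and 6 of the 7 have a row among the 19465 genes of the count tables; Cxcl2 has none and its expression was not analysed here. The samples were 4 formalin-fixed, paraffin-embedded sections, the primary tumour and the lung of each of 2 BALB/c mice, Mouse_627 and Mouse_628. Both mice were given 4T1 cells, an established mouse mammary carcinoma line, in the mammary fat pad at 8 weeks of age and were sacrificed 28 days later, so that all 4 sections come from tumour-bearing animals and no untreated lung enters any comparison. Each section was read by 10x Visium spatial transcriptomics, which counts unique molecular identifiers (UMIs) from gene-specific probes in a grid of spots, and a spot holds several cells that may be of different types. Spots with over 200 genes were kept, 9339 of 9445, and the 106 spots left out all lay in the primary tumour of Mouse_627.

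G-CSF is the cytokine that drives the production and release of neutrophils, acting through the receptor Csf3r on myeloid precursors and mature neutrophils. Cxcl1, Cxcl2, Cxcl3 and Cxcl5 are neutrophil-attracting chemokines that bind Cxcr2, the receptor by which neutrophils leave the marrow and enter inflamed tissue. 4T1 tumours are known for G-CSF secretion and for a strong rise of neutrophils in blood and lung. Inducers of these ligands include interleukin 1, interleukin 17 and tumour necrosis factor, which act through the transcription factor NF-kappa-B.

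The measured chemokine genes lie within 133.8 kb on chromosome 5 (mm10), in the order Cxcl5, Cxcl3, Cxcl1, all on the plus strand, while Csf3 lies on chromosome 11, Csf3r on chromosome 4 and Cxcr2 on chromosome 1. Promoters from RefSeq (GRCm38.p6) were matched for 5 of the 7 genes, Csf3r, Cxcl1, Cxcl2, Cxcl3 and Cxcr2. Between the 120-base windows before the starts of Cxcl1, Cxcl2 and Cxcl3, the longest shared run was the 11 bases GGGAATTTCCC, which have the form of a kappa-B element, and the longest shared run without overlap with it was the 8 bases ATAAAAGG, of the TATA type. In the 250 bases before the start, searched on both strands (reverse GGGAAATTCCC and CCTTTTAT), the first occurred in 14 of 32851 promoters, 0.0426%, and the second in 507, 1.54%. As these runs were chosen for being shared, their presence in the 3 chemokine promoters is given by the choice; Csf3r and Cxcr2 held neither in that window. The windows of Cxcl1 (chr5:90891125-90891244, plus strand) and Cxcl3 (chr5:90785981-90786100, plus strand) are shown because both ligands were lower in the lung sections, as described further on. Capitals mark the shared runs.
Cxcl1: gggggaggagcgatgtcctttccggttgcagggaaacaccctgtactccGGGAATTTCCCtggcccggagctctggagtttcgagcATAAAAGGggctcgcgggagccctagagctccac
Cxcl3: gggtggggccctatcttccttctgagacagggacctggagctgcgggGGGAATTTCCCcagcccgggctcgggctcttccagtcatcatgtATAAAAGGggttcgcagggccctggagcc
The longer run began 71 bases before the start in Cxcl1 and 73 in Cxcl3, and the shorter one 34 and 29 bases before it. These letter matches describe the sequence and are no measure of binding.

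The sections held 10890154 to 30240176 UMIs, with medians of 1820 to 9174.5 UMIs per spot. Levels are given in CPM, a gene's UMIs in every 1000000 UMIs of the section or class, and levels of different genes are not compared because each rests on its own probes. Background was read from 1178 olfactory and vomeronasal receptor genes, which belong to sensory neurons of the nose, and their mean was 0.155 to 0.737 CPM in 3 sections and 7.86 CPM in the primary tumour of Mouse_628, which stood apart. The 95th percentile of these genes there was 19.0 CPM, and every measured member lay above that percentile in its own section. Within the tumour of Mouse_628 the mean background fell with depth, from 29.0 CPM in the shallowest quartile of spots to 2.42 CPM in the deepest. The markers followed the tissue labels. The summed level of 8 alveolar genes was 13139 and 7456 CPM in the lungs of Mouse_627 and Mouse_628 against 23.2 and 62.3 CPM in the tumours, and that of 7 carcinoma genes was 151 and 1245 CPM in the lungs against 4163 and 4532 CPM in the tumours. The sections share 1341 spot barcodes, which name grid positions and not cells.

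**Figure D1:**
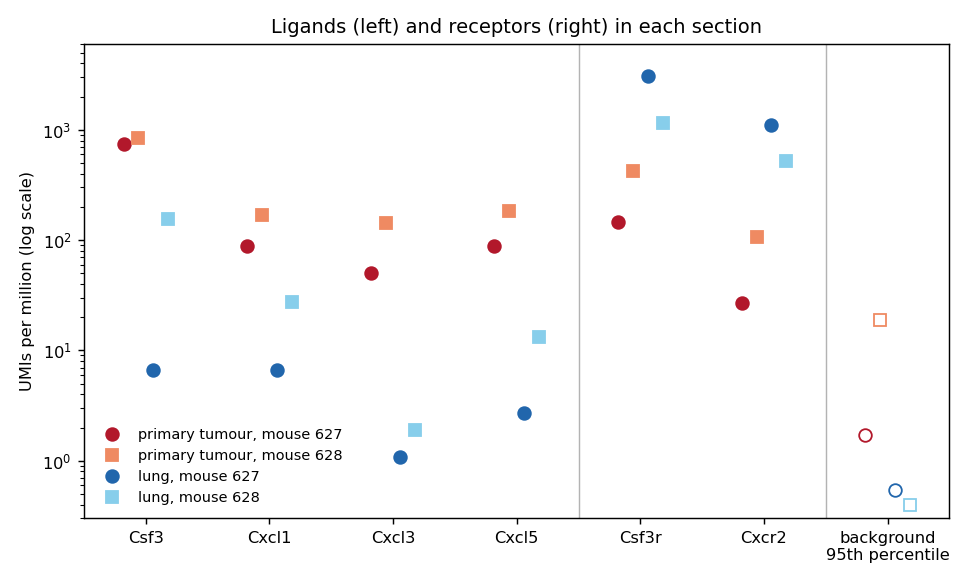
Level of each measured gene in each of the 4 sections, in CPM on a log axis, with the 95th percentile of the 1178 receptor genes of the background as open symbols. The ligands Csf3, Cxcl1, Cxcl3 and Cxcl5 lie higher in both tumours (red and orange) than in both lungs (blue), and the receptors Csf3r and Cxcr2 lie higher in both lungs.

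Ligands were at their highest in the primary tumours and receptors in the lungs, with no overlap between the tissues for any of the 6 measured genes. Of all 15267 genes tested, 59.1% had no overlap between the tissues either, so the separation alone does not set these genes apart. Csf3 stood at 751 and 837 CPM in the tumours of Mouse_627 and Mouse_628, and at 6.65 and 157 CPM in their lungs. The tumours were close to each other, whereas the lungs differed 23.6-fold, with the lung of Mouse_628 far above that of Mouse_627. Csf3 UMIs were found in 67.0% and 53.0% of tumour spots, in 3.77% of lung spots of Mouse_627 and in 47.4% of those of Mouse_628. With each spot thinned to 1000 UMIs, which leaves out 886, 56, 10 and 5 shallower spots in that order, the shares were 48.9%, 33.1%, 0.533% and 10.1%.

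The chemokines followed the same order of sections. Cxcl1 was at 88.6 and 170 CPM in the tumours and 6.65 and 27.7 CPM in the lungs. Cxcl3 was at 50.5 and 143 CPM in the tumours and 1.08 and 1.88 CPM in the lungs, where it rested on 12 and 57 UMIs. Cxcl5 was at 89.0 and 183 CPM in the tumours and 2.70 and 13.3 CPM in the lungs. Each chemokine was higher in Mouse_628 than in Mouse_627 in either tissue. Of the summed UMIs of these 3 chemokines, Cxcl3 made up 22.2% and 28.9% in the tumours but 10.3% and 4.40% in the lungs, while Cxcl1 made up 38.8% and 34.2% in the tumours and 63.8% and 64.6% in the lungs.

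Receptors ran the other way. Csf3r was at 145 and 424 CPM in the tumours and 3049 and 1148 CPM in the lungs, where 99.6% and 95.5% of spots held a UMI. Cxcr2 was at 26.8 and 107 CPM in the tumours and 1098 and 520 CPM in the lungs. Here the order of the mice turned: Mouse_628 had the higher tumour and the lower lung for both receptors. As a share of 1000 UMIs of the 16 neutrophil markers (S100a8, S100a9, Ly6g, Mmp8, Retnlg and others), Csf3r was 52.5 and 36.8 in the tumours and 36.6 and 33.6 in the lungs, and Cxcr2 was 9.74 and 9.29 in the tumours and 13.2 and 15.2 in the lungs. The markers themselves summed to 2754 and 11516 CPM in the tumours and 83349 and 34188 CPM in the lungs, in the same order of sections as the receptors. None was at 0, but 2 in the tumour of Mouse_627 and 3 in that of Mouse_628 lay at or under the background percentile. The part of the markers in the receptor difference was not tested. In sections, fewer cells of a type and less RNA per cell cannot be told apart.

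The lung was compared with the primary tumour by edgeR's quasi-likelihood test on the section sums, with 2 sections per tissue and Benjamini-Hochberg adjustment over 15267 genes. At an adjusted p of 0.05, 1139 genes, 7.46%, were called, and 5 of the 6 members were among them. Csf3r was higher in lung by 3.28 on the log2 scale (SE 0.74, edgeR adjusted p 0.0293) and Cxcr2 by 3.98 (SE 0.74, edgeR adjusted p 0.0149). Cxcl3 fell by 5.70 (SE 0.60, edgeR adjusted p 0.00279), Cxcl5 fell by 3.83 (SE 0.65, edgeR adjusted p 0.0105) and Cxcl1 fell by 2.67 (SE 0.58, edgeR adjusted p 0.0257). The difference of Csf3 was -3.10 (SE 1.01, edgeR adjusted p 0.108) and was not called. With the mouse as a block, 11.9% of genes were called and all 6 members were, Csf3 at -4.27 (SE 0.67, edgeR adjusted p 1.19e-08), though that fit took 1 spread pooled over all genes. Where lung spots were limited to the quartile richest in carcinoma markers, no member was called and 10 of 14953 genes (0.0669%) were, and the adjusted p of Cxcl3 was then 0.0534 by edgeR. Scaling by library size alone put the median difference of all genes at -0.31, against -0.0046 before, and left Cxcl3 as the only member called, with 2.15% of genes called, while all 6 directions stayed.

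Other genes of the pathway are given from lists, beside the median difference of -0.0046 and the 7.46% called over all genes tested. Of 7 tested genes of related colony-stimulating factors and receptors, 2 were called, both higher in lung: Csf2rb and Csf2ra, the receptor subunits for GM-CSF. Csf2rb was at 11.1 and 11.6 CPM in the tumours and 62.8 and 35.5 CPM in the lungs (log2 difference 2.46, edgeR adjusted p 0.0149). In the tumour of Mouse_628, 6 of 8 genes of this list lay at or under the background percentile of 19.0 CPM, Csf2rb, Csf2 and Csf1 among them, so that their levels there are not above background. The size of the Csf2rb difference is therefore not exact. Csf2, which encodes GM-CSF, was at 2.88 and 11.5 CPM in the tumours and 7.19 and 5.16 CPM in the lungs, with overlap. Csf1, the macrophage growth factor, was at 15.9 and 13.5 CPM in the tumours and 10.4 and 12.0 CPM in the lungs, and neither gene was called.

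Among 17 tested genes of the wider CXC family, 4 were higher and 1 lower in lung. Cxcr1, another neutrophil receptor of CXC chemokines, was at 3.47 and 13.8 CPM in the tumours and 75.9 and 33.2 CPM in the lungs (log2 difference 3.05, edgeR adjusted p 0.0290), in the same direction as Cxcr2. Its level in the tumour of Mouse_628 lay below the background percentile of 19.0 CPM, as did that of Ppbp, and 12 of 17 genes of the list were at or under it there. The size of the Cxcr1 difference is therefore not exact. Cxcl15, a chemokine of lung epithelium, was at 617 and 336 CPM in the lungs and had 0 UMIs in both tumours, which allows up to 0.222 and 0.275 CPM. Cxcl17, a chemokine of mucosal surfaces, was at 29.8 and 33.0 CPM in the lungs and at 0.369 and 4.68 CPM in the tumours, under the background percentiles of 1.70 and 19.0 CPM there, so that no fold is given for it. Ppbp, a platelet chemokine that also binds Cxcr2, was at 6.80 and 15.7 CPM in the tumours and 20.9 and 11.5 CPM in the lungs, with overlap and no call. Cxcr4, which retains neutrophils in the marrow, was at 65.4 and 60.6 CPM in the tumours and 106 and 49.9 CPM in the lungs, again with overlap.

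Of 19 tested inducers and brakes of the ligands, 1 was higher and 1 lower, a share near the 7.46% called over all genes. Il17ra, a subunit of the interleukin 17 receptor, was at 46.9 and 38.7 CPM in the tumours and 246 and 122 CPM in the lungs (log2 difference 2.45, edgeR adjusted p 0.0179). Tnfaip3, an NF-kappa-B brake that this factor itself induces, was at 65.0 and 89.4 CPM in the tumours and 18.4 and 27.7 CPM in the lungs (log2 difference -1.46, edgeR adjusted p 0.0417). Il1b, which encodes interleukin 1 beta, was at 454 and 711 CPM in the tumours and 774 and 198 CPM in the lungs, with overlap. None of 10 genes that act downstream of the G-CSF receptor was called, among them Socs3, its feedback inhibitor, at 356 and 265 CPM in the tumours and 514 and 319 CPM in the lungs. With the mouse as a block, where 11.9% of all genes were called, 2 of the 10 were, Stat5b and Bcl3. Of 9 tested genes that act downstream of Cxcr2, 6 were higher in lung, as were 12 of the 16 neutrophil markers, and the lists were not tested against each other. Among the 6 were Fgr, which encodes a Src-family kinase, and Pik3cg, which encodes a phosphoinositide kinase of leukocytes. Fgr was at 30.0 and 63.8 CPM in the tumours and 741 and 295 CPM in the lungs (log2 difference 3.85, edgeR adjusted p 0.00993).

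**Figure D2:**
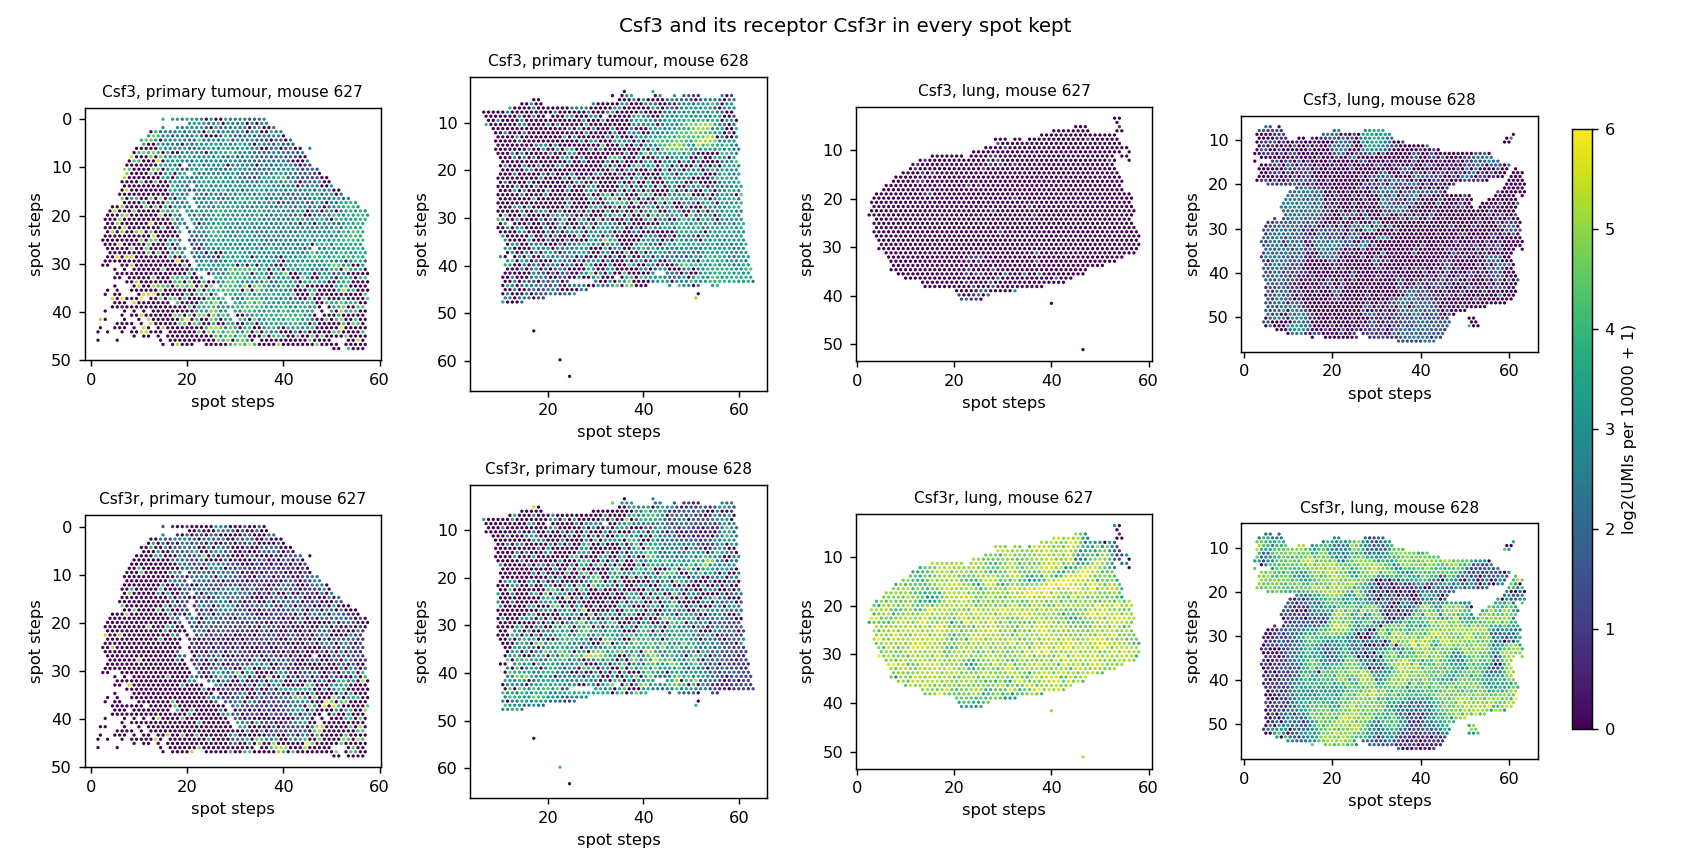
Each kept spot at its place on the slide grid, in spot steps, coloured by log2(UMIs per 10000 + 1) of Csf3 (upper row) and Csf3r (lower row) in the 4 sections. In the lung of Mouse_628 patches with Csf3 are those with little Csf3r, and in the lung of Mouse_627 Csf3r covers nearly every spot and Csf3 is nearly absent.

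Within sections, Csf3 UMIs were unevenly spread over the spots. In the tumour of Mouse_628, 83 of 2372 spots (3.50%) held at least as many Csf3 UMIs as all the others, against 271 spots (10.9%) in the tumour of Mouse_627 and 244 spots (8.78%) in the lung of Mouse_628. In the lung of Mouse_627 that number was 27 spots (1.59%), from only 74 Csf3 UMIs. These numbers rest on UMIs that were not scaled for depth. In the tumour of Mouse_628 the deepest quartile had a mean of 13268 UMIs per spot and the shallowest 1188. There the number was 77 spots for Cxcl5, 89 for Cxcl1, 168 for Cxcr2, 186 for Cxcl3 and 297 for Csf3r. Receptor transcripts were spread over more spots in the lungs, where that number for Csf3r was 515 spots (30.3%) in Mouse_627 and 665 spots (23.9%) in Mouse_628. Moran's I, a measure of likeness between adjoining spots that is near 0 for a random layout, was 0.318 and 0.344 for Csf3 in the tumours of Mouse_627 and Mouse_628 and 0.0966 and 0.509 in their lungs. For Csf3r it was 0.190 and 0.285 in the tumours and 0.576 and 0.784 in the lungs. Among the chemokines Cxcl3 had the highest value in both tumours, 0.187 and 0.321, and Cxcl5 the lowest, 0.134 and 0.119.

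Across spots the correlation of Csf3 with Csf3r was weakly positive in the tumours and negative in the lungs at full depth, but negative in all 4 sections at matched depth, and no difference between the tissues was tested. Values were log2(UMIs per 10000 + 1) at full depth and plain counts after thinning, which also leaves out spots under 1000 UMIs. Full and thinned correlations thus differ in measure and spots as well as in depth. The correlations are descriptions over spots that share a section and its depth, and spots are not replicates. Csf3 and Csf3r gave Pearson r 0.10 over 2490 spots and 0.08 over 2372 spots in the tumours of Mouse_627 and Mouse_628. In the lungs r was -0.12 over 1697 spots and -0.54 over 2780 spots. Summed with their neighbours, the spots gave 0.03 and 0.09 in the tumours and -0.27 and -0.74 in the lungs. Thinned to 1000 UMIs they gave -0.04 and -0.06 in the tumours and -0.08 and -0.15 in the lungs.

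Csf3r and Cxcr2 gave r 0.50 and 0.80 in the lungs and 0.08 and 0.20 in the tumours. Thinned to 1000 UMIs they gave 0.10 and 0.31 in the lungs and 0.02 and 0.10 in the tumours. Between the chemokines and Cxcr2, the lung of Mouse_628 gave r -0.24 for Cxcl1, -0.10 for Cxcl3 and -0.19 for Cxcl5, whereas the values in the other sections lay between -0.03 and 0.11. Cxcl3 and Csf3r gave 0.10 and 0.21 in the tumours, and 0.41 and 0.43 over spots summed with their neighbours. Thinned, they gave 0.13 and 0.10 in the tumours. Cxcl1 and Csf3 gave 0.18 and 0.25 in the tumours and 0.04 and 0.26 in the lungs, and 0.016 and 0.091 in the tumours and -0.0054 and 0.039 in the lungs when thinned. For the chemokines and Cxcr2 all thinned values lay between -0.04 and 0.05. The weak values rest on sparse counts.

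The 3 genes most like each member were found by the mean Pearson r over the 4 sections among 8673 or 8674 genes with at least 0.05 UMIs per spot in every section. Csf3 was most like Mmp3 (mean r 0.34), Ctsl (0.31) and Plau (0.31), which encode secreted or lysosomal proteases, and of which Mmp3 and Plau are on the carcinoma marker list. Csf3r was most like S100a9 (0.61), S100a8 (0.59) and Wfdc17 (0.54), and Cxcr2 was most like S100a8 (0.46), S100a9 (0.44) and Wfdc17 (0.43). S100a8 and S100a9 encode the calprotectin subunits that fill neutrophils. For Cxcl1 (Ctsl, Mmp3 and Hspa5) and Cxcl5 (Mmp3, Ctsl and Pfkl) the highest mean r was 0.17 and 0.13. For Cxcl3 the leading gene was S100a9, with r 0.28 and 0.31 in the tumours of Mouse_627 and Mouse_628 but -0.02 and -0.09 in their lungs.

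Spots were next divided by the share of UMIs from the 16 neutrophil markers, a list without any member, and the richest quartile of each section was set against the poorest. Csf3r was at 379 against 78.5 CPM in the tumour of Mouse_627, 1128 against 146 CPM in the tumour of Mouse_628, 3764 against 1978 CPM in the lung of Mouse_627 and 2822 against 193 CPM in the lung of Mouse_628. It was higher in the marker-rich spots of 4 of 4 sections, least so in the lung of Mouse_627, where the poorest quartile still held 52699 CPM of the markers, against 5048 CPM in the lung of Mouse_628. Cxcr2 was at 63.6 against 12.1 CPM and 298 against 36.4 CPM in the tumours, and 1317 against 706 CPM and 1233 against 98.3 CPM in the lungs, likewise higher in 4 of 4.

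**Figure D3:**
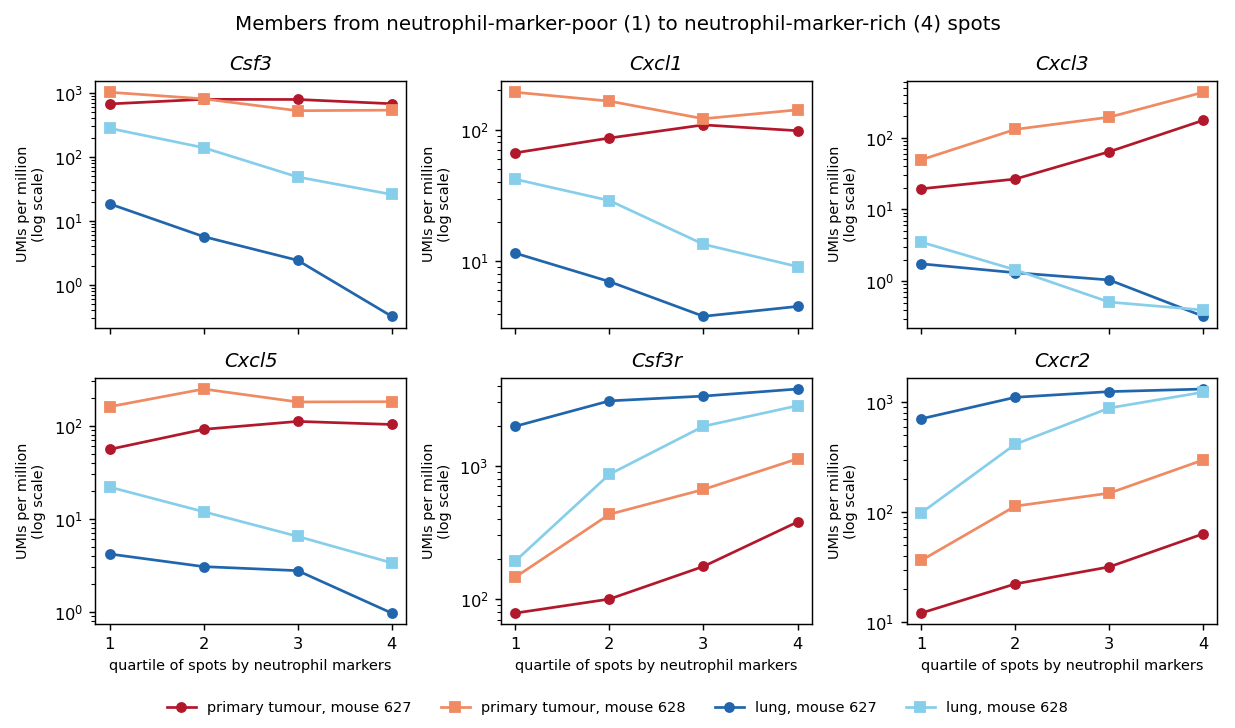
Level of each measured gene, in CPM on a log axis, in quartiles of spots from poor (1) to rich (4) in neutrophil markers, with 1 line per section. Receptors climb in all 4 sections, Cxcl3 climbs in both tumours and declines in both lungs, and Csf3 declines in both lungs.

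The ligands were read in the same division, with no test between them. In the tumours Cxcl3 was at 175 against 19.4 CPM in Mouse_627 and 430 against 49.2 CPM in Mouse_628, higher in the marker-rich spots by 9.03-fold and 8.75-fold. In the lungs Cxcl3 was at 0.324 against 1.75 CPM (1 against 5 UMIs) in Mouse_627 and 0.396 against 3.51 CPM (2 against 41 UMIs) in Mouse_628, lower in both. Cxcl5 had the same opposed directions with smaller ratios, at 103 against 55.6 CPM and 181 against 160 CPM in the tumours and 0.971 against 4.19 CPM and 3.36 against 21.9 CPM in the lungs. Csf3 was at 677 against 671 CPM and 537 against 1022 CPM in the tumours, and at 0.324 against 18.5 CPM and 25.9 against 280 CPM in the lungs. Cxcl1 was at 98.3 against 66.8 CPM and 142 against 193 CPM in the tumours, and at 4.53 against 11.5 CPM and 9.10 against 42.0 CPM in the lungs. All 4 ligands were thus lower in the marker-rich spots of both lungs, and in the tumours only Cxcl3 and Cxcl5 were higher in both. Over the 4 sections the median log2 difference in this division was -1.21 over 7 carcinoma genes, -1.12 over 8 macrophage genes, -0.92 over 7 fibroblast genes and 1.42 over 8 alveolar genes, with none of them called by edgeR. The effect in lung less that in tumour had a median of -1.86 over the carcinoma genes. Their part in the ligand differences was not tested.

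In edgeR's test of this division with the section as a block, 0 of 12101 genes (0%) passed an adjusted p of 0.05, although 2588 had an unadjusted p below 0.05 and DESeq2 called 892. Csf3r and Cxcr2 differed by 2.70 (SE 0.51) and 2.72 (SE 0.48) on the log2 scale, each with an edgeR adjusted p of 0.152, while DESeq2, which called 7.37% of genes, called both (adjusted p 9.24e-08 for Csf3r and 5.23e-08 for Cxcr2). In the tumours alone, where 5.91% of genes were called with 1 spread pooled over all genes, Cxcl3 was higher by 3.11 (SE 0.33, edgeR adjusted p 1.41e-17), Cxcr2 by 2.74 (SE 0.31, edgeR adjusted p 3.25e-16) and Csf3r by 2.59 (SE 0.38, edgeR adjusted p 3.87e-09). The same fit gave Cxcl5 0.48 (SE 0.29, edgeR adjusted p 0.369). In the lungs alone no gene (0%) was called.

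The difference between the tissues in this effect, lung less tumour, was -2.56 for Cxcl5 (SE 0.49, edgeR adjusted p 0.283) and -2.85 for Csf3 (SE 0.64, edgeR adjusted p 0.294). edgeR called none of 16097 genes (0%) for it, with 2033 below an unadjusted p of 0.05, and DESeq2 called 47 (0.292%), Cxcl5 (adjusted p 0.0360) and Csf3 (adjusted p 0.00605) among them. No test of it is given for Cxcl3, which did not pass the filter on low counts in the lungs alone and entered the joint fit only through the tumours. The classes differed in depth. In the lung of Mouse_628 the median was 7303 UMIs per spot in the rich and 16070 in the poor class. In the tumour of Mouse_627 it was 1629 and 702. The summed UMIs of the rich and the poor class were 1525475 and 3145574 in that tumour and 1665736 and 5609158 in that of Mouse_628. Sums over the poor classes of the tumours thus rest more on deep spots than the medians show. Within each depth quartile of the tumours, Cxcl3 was higher in the marker-richer spots in 8 of 8 cases, by 2.10-fold to 6.38-fold, while Cxcl5, Csf3 and Cxcl1 were each higher in 5 of 8. In the lungs the marker-richer spots held fewer Cxcl3 UMIs in 6 of 8 cases and equal UMIs in 2, with at most 15 in a class, and fewer Cxcl5 UMIs in 5 and equal UMIs in 3.

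In the lungs, carcinoma markers were used in the same way to divide the spots. Csf3 was at 20.7 against 3.19 CPM (55 against 8 UMIs) in Mouse_627 and 291 against 25.4 CPM (3514 against 125 UMIs) in Mouse_628, higher in the carcinoma-rich quartile of both lungs. Cxcl5 was at 4.90 against 2.0 CPM and 21.6 against 2.84 CPM, and Cxcl1 at 9.79 against 6.79 CPM and 41.0 against 8.53 CPM. Csf3r was at 2468 against 3356 CPM in Mouse_627 and 282 against 2361 CPM in Mouse_628, and Cxcr2 at 936 against 1175 CPM and 142 against 1044 CPM, both lower in the carcinoma-rich quartile of either lung. Every ratio was wider in Mouse_628, whose lung also held more carcinoma marker signal. In this division the median log2 difference was -1.89 over 16 neutrophil genes, -1.14 over 8 alveolar genes and 1.15 over 8 macrophage genes, with none of them called by edgeR. In the lung quartile richest in macrophage markers Csf3 was 4.56-fold and 5.07-fold higher than in the poorest quartile. The part of these cell types in the Csf3 difference was not tested. Median UMIs per spot, rich against poor, were 5790 against 5919 in the lung of Mouse_627 and 16711 against 7097 in that of Mouse_628. In Mouse_628 the deepest spot quartile held Csf3 at 236 and Csf3r at 466 CPM, against 66.0 and 1968 CPM in the shallowest. In Mouse_627 they were at 7.98 and 2902 CPM against 8.92 and 3193 CPM. The part of depth was not tested.

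**Figure D4:**
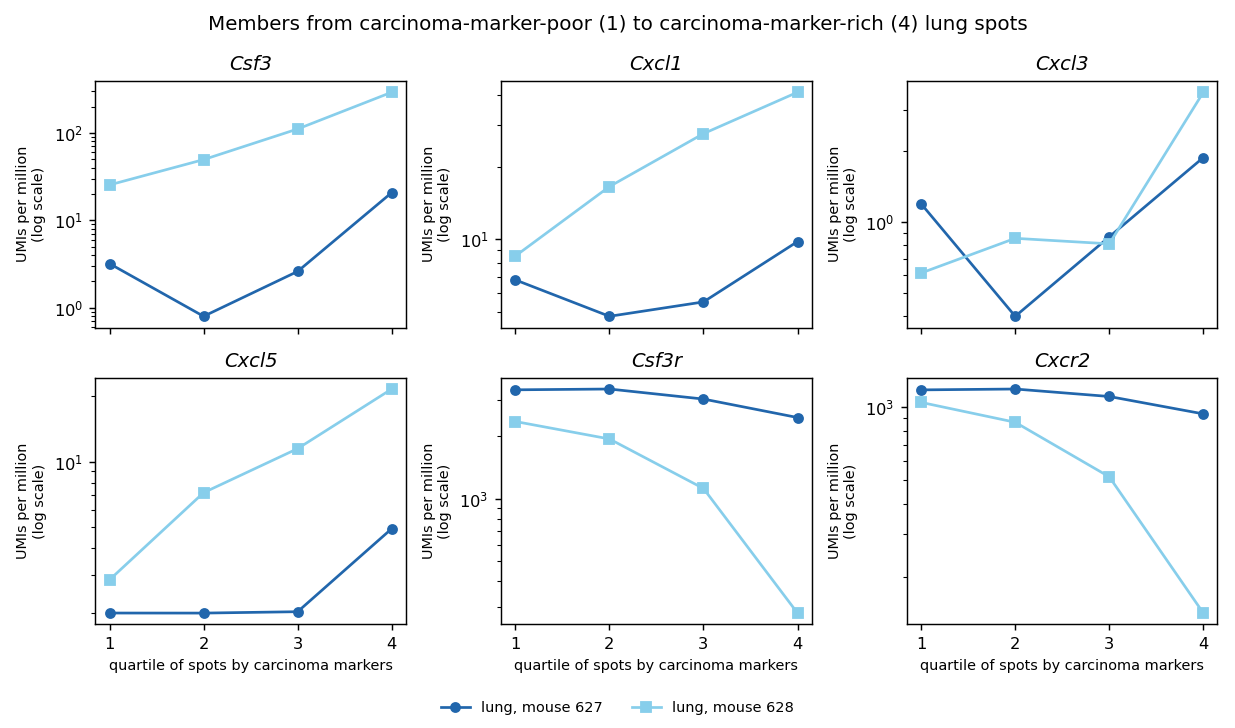
Level of each measured gene, in CPM on a log axis, in quartiles of lung spots from poor (1) to rich (4) in carcinoma markers, with 1 line per mouse. In Mouse_628 the ligands Csf3, Cxcl1 and Cxcl5 climb while Csf3r and Cxcr2 decline, and in Mouse_627 the first and second quartiles both hold spots without any such UMI.

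The edgeR test of this division called 0 of 12299 genes (0%), with 2346 below an unadjusted p of 0.05 and 44 called by DESeq2. Csf3 had a log2 difference of 3.10 (SE 0.40, edgeR adjusted p 0.106), Csf3r -1.88 (SE 0.85, edgeR adjusted p 0.267) and Cxcr2 -1.72 (SE 0.74, edgeR adjusted p 0.250). DESeq2, with 0.358% of genes called, gave Csf3 3.05 (SE 0.55, adjusted p 2.05e-04) and called no other member. Cxcl3, at 5 against 3 and 43 against 3 UMIs, did not pass the filter on low counts and was not tested. In the lung of Mouse_627, 875 of 1697 spots had no carcinoma marker UMI, so that its poorest quartile is a draw by file order from equal spots. With all such spots in the poor class the difference of Csf3 was 3.35 (SE 0.37, edgeR adjusted p 0.0653), an alternative added after the data were seen.

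The spots were also divided by hypoxia markers such as Car9 and Vegfa. Csf3 was at 754 against 725 CPM and 809 against 497 CPM in the tumours and at 6.18 against 3.40 CPM and 245 against 70.7 CPM in the lungs, higher in the marker-rich quartile of 4 of 4 sections but by only 1.04-fold in the tumour of Mouse_627. Cxcl1, at 95.5 against 73.0 CPM and 163 against 99.4 CPM in the tumours and at 8.82 against 4.91 CPM and 33.3 against 19.4 CPM in the lungs, was also higher in 4 of 4. Cxcl3 was higher in the tumour of Mouse_627 (78.5 against 33.1 CPM) and lower in that of Mouse_628 (106 against 200 CPM). In the lungs Cxcl3 was at 1.32 against 1.51 CPM (3 against 4 UMIs) and 3.99 against 1.20 CPM (34 against 7 UMIs). Cxcl5 was at 107 against 61.9 CPM and 165 against 144 CPM in the tumours. In the lungs Cxcl5 was at 0.882 against 3.78 CPM and 22.2 against 8.43 CPM, in opposite directions. Csf3r was at 193 against 114 CPM and 382 against 391 CPM in the tumours and at 3095 against 3042 CPM and 588 against 1756 CPM in the lungs, so that its directions differed between sections. Cxcr2 was 1.47-fold higher in the marker-rich quartile of the tumour of Mouse_627 and 2.87-fold lower in that of the lung of Mouse_628, with ratios of 0.978 and 0.992 in the tumour of Mouse_628 and the lung of Mouse_627. The median log2 difference was 0.72 over 7 carcinoma genes, -1.86 over 5 airway genes, -1.32 over 5 cardiac genes and -1.15 over 6 B and plasma cell genes, with 1 gene called lower in each of the last 3 lists and no carcinoma gene called by edgeR. Their part in these differences was not tested. Median UMIs per spot, rich against poor, were 2368.5 against 668 and 2563 against 1437 in the tumours. In the lungs they were 5150.5 against 6232 and 10153 against 7801. From the shallowest to the deepest quartile of spots, Csf3 ran from 517 to 788 CPM and from 261 to 1017 CPM in the tumours. In the lungs it ran from 8.92 to 7.98 CPM and from 66.0 to 236 CPM, and the part of depth was not tested. The test called 8 of 11932 genes (0.067%) and no member, with edgeR adjusted p 0.241 for Csf3 (log2 difference 0.87, SE 0.25) and 0.210 for Cxcl1 (0.67, SE 0.17). DESeq2 called 36 genes (0.302%) and no member. Between the tissues no gene (0%) differed in this effect by edgeR, 589 of 15216 had an unadjusted p below 0.05, and DESeq2 called 0.

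Spots with a Csf3 UMI after thinning to 1000 UMIs were then compared with those without one. There were 785 such spots in the tumour of Mouse_627, 767 in that of Mouse_628, 9 in the lung of Mouse_627 and 281 in that of Mouse_628. Median UMIs per spot, with Csf3 against without, were 6714 against 6291 and 2581 against 1693 in the tumours. In the lungs they were 3234 against 6601 and 12984 against 8859. In the lung of Mouse_628 Csf3r was at 1968 CPM in the shallowest quartile of spots and at 466 CPM in the deepest. Csf3r was at 140 against 137 CPM and 337 against 514 CPM in the tumours and at 1673 against 3054 CPM and 556 against 1241 CPM in the lungs, so that it was lower with Csf3 in 3 of 4 sections. Cxcl1 was at 97.3 against 81.2 CPM and 213 against 126 CPM in the tumours and at 46.5 against 6.50 CPM (2 against 72 UMIs) and 39.3 against 25.8 CPM in the lungs, higher with Csf3 in 4 of 4.

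With the section as a block, edgeR called 1046 of 12894 genes (8.11%), 34 higher and 1012 lower in Csf3 spots. Csf3r fell by 0.75 (SE 0.16, edgeR adjusted p 7.71e-04) and Cxcr2 fell by 0.60 (SE 0.15, edgeR adjusted p 0.00282), while Cxcl1 rose by 0.54 (SE 0.12, edgeR adjusted p 0.00159) and Cxcl5 by 0.49 (SE 0.12, edgeR adjusted p 0.00493). Cxcl3 had a difference of -0.19 (SE 0.15, edgeR adjusted p 0.535). The 9 Csf3 spots in the lung of Mouse_627 held 0 UMIs of Cxcl3 and of Cxcl5, and without that section the fit gave -0.19 for Cxcl3 and 0.49 for Cxcl5 (edgeR adjusted p 0.0128). Of the 16 neutrophil markers 14 were lower as well, and of 9 tested genes downstream of Cxcr2 5 were lower. Markers of other cell types moved as well, with 8 of 8 alveolar, 4 of 4 airway and 4 of 5 cardiac genes lower, and of 7 carcinoma genes 3 were higher and 1 lower. Their part in the receptor difference was not tested. By DESeq2, 35 genes (0.271%) were called and no member, with an adjusted p of 0.109 for Csf3r. Without the lung of Mouse_628, 58 genes were called and the adjusted p of Csf3r was 0.426 by edgeR, and in the tumours alone, where 0.0656% of genes were called, Csf3r differed by -0.16 (SE 0.33, edgeR adjusted p 0.868). In the lungs alone, where 18% were called, Csf3r fell by 1.23 (SE 0.21, edgeR adjusted p 3.69e-07). The difference between the tissues was -1.50 for Csf3r (SE 0.44, edgeR adjusted p 0.147), with 0.0108% of genes called, and DESeq2, with 0.27% called, gave it an adjusted p of 0.0141. The fits of each tissue alone and between the tissues were added after the data were seen. In edgeR each of them took 1 spread pooled over all genes.

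**Figure D5:**
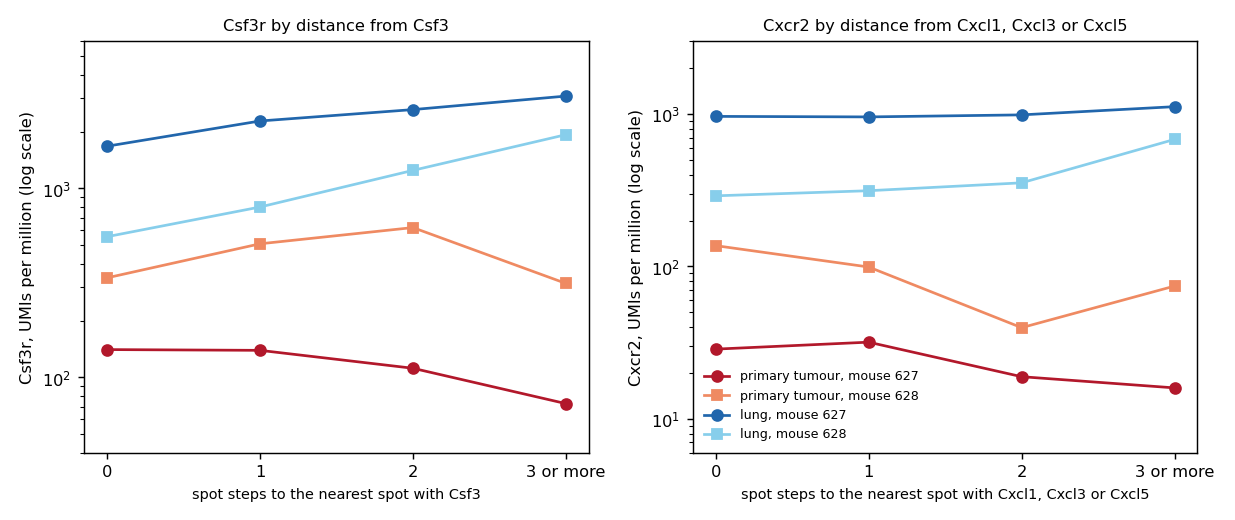
Level of Csf3r by distance from the nearest spot with Csf3 (left) and of Cxcr2 by distance from the nearest spot with Cxcl1, Cxcl3 or Cxcl5 (right), in CPM on a log axis, after thinning to find ligand spots. In the lung of Mouse_628 Csf3r climbs from 556 CPM in Csf3 spots to 1925 CPM at 3 or more steps, and in the tumours Cxcr2 is higher at 0 than at 2 steps.

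Around Csf3 spots of the lung of Mouse_628, Csf3r was at 556 CPM in the spots themselves, 798 CPM at 1 step, 1246 CPM at 2 steps and 1925 CPM at 3 or more steps. Neutrophil markers climbed alongside, from 15730 to 57580 CPM. In the tumour of Mouse_627 Csf3r ran from 140 CPM in Csf3 spots to 112 CPM at 2 steps and 72.7 CPM at 3 or more steps, the last in 4 spots. In the tumour of Mouse_628 it ran from 337 CPM to 621 CPM at 2 steps and 315 CPM at 3 or more steps (74 spots), so that the tumours differed up to 2 steps and both ended below their value in Csf3 spots.

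Spots with a UMI of Cxcl1, Cxcl3 or Cxcl5 gave opposed directions by tissue. In these ligand spots Cxcr2 was at 28.7 against 26.5 CPM in the tumour of Mouse_627 and 137 against 90.4 CPM in that of Mouse_628, and at 966 against 1099 CPM and 291 against 529 CPM in the lungs, which held 18 and 87 ligand spots. Csf3r was at 175 against 131 CPM and 503 against 380 CPM in the tumours, and at 2453 against 3054 CPM and 616 against 1168 CPM in the lungs. Both receptors were higher with ligand in both tumours and lower with ligand in both lungs. Median UMIs per spot, with ligand against without, were 4729 against 6858 and 1987 against 1787 in the tumours. In the lungs they were 3699 against 6610 and 10603 against 9171. Across depth quartiles, from shallow to deep, Cxcr2 was at 21.2, 56.3, 37.1 and 20.3 CPM in the tumour of Mouse_627. In the tumour of Mouse_628 it was at 101, 112, 189 and 92.5 CPM. In the lungs it ran from 1093 to 1067 CPM and from 924 to 216 CPM, and the part of depth was not tested. In the shallowest spot quartile of the tumour of Mouse_628, Cxcl1 was at 65.3 CPM, Cxcl3 at 162 CPM and Cxcl5 at 133 CPM. The mean background there was 29.0 CPM a gene, so that part of the 805 ligand spots of this tumour may hold background UMIs alone. Over all sections edgeR called 0 of 12969 genes (0%), with 470 below an unadjusted p of 0.05 and 0 called by DESeq2, and Cxcr2 differed by -0.14 (SE 0.17).

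The tissues were therefore also fitted apart, after the data were seen, each with 1 spread pooled over all genes. In the tumours 0.454% of genes were called, with Cxcr2 higher by 0.49 (SE 0.09, edgeR adjusted p 9.80e-05) and Csf3r by 0.40 (SE 0.06, edgeR adjusted p 9.25e-09). In the lungs 2.08% were called, and Cxcr2 fell by 0.67 (SE 0.16, edgeR adjusted p 0.00431) and Csf3r fell by 0.74 (SE 0.16, edgeR adjusted p 0.00114). The difference between the tissues was -1.57 for Cxcr2 (SE 0.15) and -1.52 for Csf3r (SE 0.14), where 6.4% of genes were called and the median over all genes was -0.37. DESeq2, which called 0.445% of genes, gave -1.12 for Cxcr2 (adjusted p 0.00485) and -1.21 for Csf3r (adjusted p 1.57e-06). Without the tumour of Mouse_627 the edgeR adjusted p was 0.388 for both, and without that of Mouse_628 it was 0.537 for Cxcr2 and 0.0105 for Csf3r. Neutrophil markers moved the same way, at 3444 CPM in ligand spots and 1987 CPM at 2 steps in the tumour of Mouse_627, and at 18197 and 22487 CPM in the lung of Mouse_628. In the test between the tissues 15 of 16 neutrophil, 4 of 8 alveolar, 3 of 6 endothelial and 2 of 5 airway genes were called lower by edgeR, with medians of -1.48, -1.04, -0.63 and -1.60. The part of these cell types was not tested.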

How the data were processed

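The deposited files hold raw UMI counts per gene and spot, which the authors made from probe reads with Space Ranger 2.0.0 (file header) on mm10 (labels), 1 matrix per section. Spots with over 200 genes were kept. UMIs were summed per section, or per section and class of spots, and divided by the total for CPM. Sums were tested with edgeR 4.0.16 (TMM, filterByExpr, quasi-likelihood, R 4.3.3), with the section as a block where spots of one section were compared, and with DESeq2 1.42.0 as an alternative. A class is the upper or lower quartile of spots by the share of UMIs from a marker list, or spots with a ligand UMI after thinning to 1000 UMIs. Spots are not replicates, and with 2 sections per tissue p-values of the tissue test measure only the spread between these sections. With the section as a block, p-values measure how the difference between classes varies over these sections. In fits that took 1 spread pooled over all genes, they do not measure the spread of the single gene. Per the labels, lung and tumour of a number come from 1 mouse, and their deviations from the tissue means had a correlation of -0.29 over 15267 genes. With simulated 4-fold changes the tissue test recovered 97% of genes and with 2-fold changes 68%. The simulated spread between sections was a fixed setting, equal for all genes and not taken from these data. These shares therefore do not show how often real changes of that size are called here. Members and lists were chosen with earlier results of these data known. Text names the members, up to 3 genes per pathway list with the largest called change, and Cxcl15, Ppbp, Cxcr1, Cxcr4, Csf2, Csf1, Socs3 and Il1b. A gene that this rule names is not reported here. Other alternatives were no filter on low counts, library size alone, over 500 genes per spot, a split of spots at the median, thinning, each tissue alone and leaving out each section. Probe counts depend on each gene's probes, and depth differs between sections.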

Additional observations from a re-analysis of the deposited data

Results flagged for a closer look

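In 4 cases an effect ran one way in both tumours and the other way in both lungs. For neutrophil-marker-rich against poor spots, the effect in lung less that in tumour was -5.50 on the log2 scale for Cxcl3, given as a value with no test, and -2.56 for Cxcl5 (edgeR adjusted p 0.283, range over alternatives 1.46e-04 to 0.862). For spots with a Cxcl1, Cxcl3 or Cxcl5 UMI against those without, it was -1.52 for Csf3r (edgeR adjusted p 2.49e-25, range 2.07e-59 to 0.388) and -1.57 for Cxcr2 (edgeR adjusted p 4.65e-23, range 5.47e-33 to 0.537). Both very small p-values come from fits in which edgeR took 1 spread for all genes. The lung values of Cxcl3 rest on 1 to 41 UMIs per class, and it passed the filter on low counts only through the tumours, and the lung of Mouse_627 held 18 ligand spots. Part of the ligand spots in the tumour of Mouse_628 may hold background UMIs alone. Spots with and without ligand also differed in depth, and the part of depth was not tested.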

How the results depend on the processing

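The 6 directions between lung and tumour held under all alternatives run, but the calls did not. Differences are on the log2 scale, p-values are adjusted ones of edgeR unless DESeq2 is named, and causes of the shifts were not tested. Csf3 was called with the mouse as a block (-4.27) and without a filter on low counts (-2.96, p 2.64e-05). The mean of the mice's log2 ratios for Csf3 was -4.63 with background subtracted and -4.62 with it kept, the latter added after the data were seen, so that subtraction itself moved little. Scaling by library size alone gave Csf3r 2.86 (p 0.103), Cxcl1 -2.92 (p 0.0832), Cxcl5 -4.08 (p 0.0523) and Cxcr2 3.57 (p 0.0652). Lung spots richest in carcinoma markers gave Csf3r 2.42 (p 0.398), Cxcl1 -2.25 (p 0.247), Cxcl3 -4.97 (p 0.0534), Cxcl5 -3.23 (p 0.151) and Cxcr2 3.16 (p 0.282). Leaving out a mouse or section moved Csf3 from -6.82 to -2.41, Csf3r from 1.44 to 4.40, Cxcl1 from -3.74 to -2.62, Cxcl5 from -5.05 to -3.78 and Cxcr2 from 2.28 to 5.36. Genes called between the tissues numbered 2644 by DESeq2, 2022 without a filter, 328 by library size alone, 10 with carcinoma-rich lung spots, 1817 with the replicate block of mice and 2565 with the mice crossed.

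In neutrophil-marker-rich against poor spots, Cxcl5 turned to 0.28 without the replicate block, 0.11 after thinning and 0.48 in the tumours alone, and ran from -1.03 to 0.29 without each section. Genes called numbered 892 by DESeq2, 822 without a filter, 1 with spots split at the median, 799 in the tumours alone and 0 to 408 without each section. The difference between tissues was -0.069 for Cxcr2 by DESeq2, and without each section it ran from -1.12 to 1.84 for Csf3r and from -1.28 to 1.48 for Cxcr2.

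In the hypoxia division, Csf3r was 0.0047 without a filter, 0.014 after thinning and 0.49 in the tumours alone, where Cxcr2 was 0.36, and Cxcl3 was -0.16 without the replicate block. Without each section, Csf3r ran from -0.48 to 0.33, Cxcr2 from -0.49 to 0.22 and Cxcl3 from -0.084 to 1.25. Genes called numbered 36 by DESeq2, 110 without a filter, 1 after thinning, 66 in the tumours alone, 0 in the lungs alone, 0 without the replicate block and 0 to 430 without each section. The difference between tissues was 0.03 for Cxcl1 by DESeq2, and without each section it ran from -0.73 to 0.23 for Cxcl1, from -0.76 to 1.36 for Cxcl3 and from -2.98 to 0.65 for Cxcl5. In the carcinoma division, genes called numbered 44 by DESeq2, 863 without a filter, 190 by library size alone, 2 after thinning and 129 with spots split at the median.

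For Csf3 spots, Csf3r was -0.76 by DESeq2 (adjusted p 0.109), -0.89 without a filter (p 0.0527), -1.25 without the replicate block, -0.16 in the tumours alone and -1.06 to -0.61 without each section, and Cxcl3 was 0.17 in the lungs alone and -0.51 to 0.26 without each section. Genes called numbered 35 by DESeq2, 2326 in the lungs alone, 12 in the tumours alone, 0 without the replicate block and 58 to 1382 without each section. For chemokine spots, Cxcr2 was 0.18 with at least 2 ligand UMIs, -0.67 in the lungs alone, 0.49 in the tumours alone and -0.54 to 0.061 without each section, and Csf3r was 0.40 in the tumours alone and -0.47 to 0.028 without each section. Genes called numbered 4 with at least 2 ligand UMIs, 2 without a filter, 266 in the lungs alone, 85 in the tumours alone and 0 to 137 without each section. The correlation of Csf3 and Csf3r after thinning was -0.041 and -0.058 in the tumours and -0.076 and -0.15 in the lungs of Mouse_627 and Mouse_628, and with neighbours summed it was 0.027 in the tumour of Mouse_627 and -0.27 and -0.74 in the lungs. Of 568 values under alternatives, 367 kept direction and call or stayed within their limits, 101 moved beyond them, 27 reversed, 35 lost a call and 38 gained one. Cxcl3 in the lungs rests on only 12 and 57 UMIs, which limits the precision of its values there.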
